A study of Saccharomyces cerevisiae with 24 samples.

Results

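The 60 genes described here were RPL1A to RPL34B of budding yeast, which encode proteins of the large (60S) ribosomal subunit. They were listed by their systematic names and not by measured values, although earlier results of these data were known when they were chosen. All 60 were found among the 7218 features of the deposited table. They form 26 pairs of paralogues, whose copies end in A and B, and 8 genes with no paralogue (RPL3, RPL5, RPL10, RPL25, RPL28, RPL29, RPL30 and RPL32).

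RNA was sequenced from W303-1A MATa cells to study gene expression after loss of condensin, the ring-shaped complex that compacts chromosomes. The mitotic (M) samples were taken 2 h after cells left the G1 arrest for fresh rich YPD medium with auxin and nocodazole, which blocks the spindle. The G1 samples came from the same cultures, which were held in mating pheromone for 1.5 h in YNB medium lacking methionine and then kept arrested for 2 h in YPD with 88 µg/ml auxin. One strain carried YCG1, a condensin subunit gene, under the methionine-repressed MET3 promoter with an auxin-inducible degron tag and the OsTIR1 ligase driven by the ADH1 promoter, and the control strain carried YCG1-3PK from its own promoter, without degron or OsTIR1. Both strains grew at 25°C, and both met auxin and methionine. M samples were therefore also later samples, longer in auxin and rich medium, and arrest and time cannot be told apart.

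The table held 24 libraries, 12 made from polyA-selected RNA and 12 from total RNA, both from the same RNA extracts. Within each library type there were 6 M and 6 G1 libraries, each split into 3 replicates of a strain code 18 and 3 of a strain code 14. No label ties a code to the degron or the control strain, so the codes are compared as codes, and no result below has a direction relative to condensin. The 3 replicates were independent repeats of the experiment, and the M and G1 samples of a replicate came from 1 culture. It is not stated whether a replicate number marks the same repeat in both codes.

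A ribosome needs 1 copy of nearly every ribosomal protein, and growing yeast devotes much of its RNA polymerase II transcription to these genes. Their promoters are typically bound by Rap1, with Fhl1 and its coactivator Ifh1, and respond together to nutrients through TORC1 and protein kinase A signalling. Many ribosomal protein genes carry introns, which are rare in yeast, and most exist as a pair of paralogues kept since a whole-genome duplication. The copies of a pair usually encode the same or nearly the same protein but can differ in expression.

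Libraries held 10282599 to 22171825 expected counts with polyA selection and 13932410 to 21650543 from total RNA. Ribosomal RNA took 2.24 to 10.5% of the polyA counts and 95.5 to 96.0% of the total RNA counts, which left only 564083 to 929948 counts outside rRNA and spike-ins in a total RNA library. The 60 genes together received 490501 to 1144740 counts in a polyA library and 25642 to 48040 in a total RNA library. The lowest count of a single gene was 227 in the polyA and 7 in the total RNA libraries, so low members are measured less precisely in total RNA. The arrest labels were checked with marker genes. The pheromone-induced agglutinin gene AGA1 had 63.9 to 148 CPM (counts scaled to a common library total) in M polyA libraries, against 3963 to 7337 CPM in G1. The mitotic cyclin gene CLB2 had 123 to 147 CPM in M, against 11.1 to 23.1 CPM in G1. In both library types, 5 of 5 pheromone-induced genes were lower and 5 of 5 mitotic genes higher in M. Between the codes in G1, 4 of the 5 pheromone genes were lower in code 18, with median log2 fold changes of −0.90 in polyA and −0.90 in total RNA, and 2 of the 5 mitotic genes were lower in polyA and 1 in total RNA. The part of these marker differences, and of those in M given below, in the comparisons of the codes was not tested. In bulk RNA, fewer cells of a type and less RNA per cell cannot be told apart.

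How well the copies of a pair can be told apart depends on their sequence. Over the coding sequence, paralogues were 78.9 to 99.4% identical. RPL1A (YPL220W) and RPL1B (YGL135W), which form the mobile L1 stalk near the tRNA exit site, differ at 4 of 654 coding bases, whereas RPL9A (YGL147C) and RPL9B (YNL067W), at the base of another stalk, differ at 36 of 576. Both pairs are shown because their polyA shares differed between the arrests in a test that did not pair the samples of a culture. They are also a weak and a strong case of what 76-base reads can separate. The stretches are coding bases 1 to 152 of RPL1A (chrXVI:135790-135941, plus strand) and RPL1B (chrVII:254641-254792, plus strand), which hold 2 of the 4 differences, and coding bases 420 to 571 of RPL9A (chrVII:227759-227910, minus strand) and RPL9B (chrXIV:500100-500251, plus strand), which hold 17 of the 36. All are written 5′ to 3′ in the R64 assembly, with capitals at the bases that differ between the copies.
RPL1A: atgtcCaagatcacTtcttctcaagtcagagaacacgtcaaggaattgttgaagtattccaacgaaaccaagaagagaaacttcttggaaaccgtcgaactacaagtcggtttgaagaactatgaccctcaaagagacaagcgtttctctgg
RPL1B: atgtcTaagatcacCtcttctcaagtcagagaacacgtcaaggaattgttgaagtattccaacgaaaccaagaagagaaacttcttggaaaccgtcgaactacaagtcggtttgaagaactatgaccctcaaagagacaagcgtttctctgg
RPL9A: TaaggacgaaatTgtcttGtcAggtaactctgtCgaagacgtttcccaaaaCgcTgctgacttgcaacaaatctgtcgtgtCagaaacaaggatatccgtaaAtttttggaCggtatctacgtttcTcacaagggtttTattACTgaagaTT
RPL9B: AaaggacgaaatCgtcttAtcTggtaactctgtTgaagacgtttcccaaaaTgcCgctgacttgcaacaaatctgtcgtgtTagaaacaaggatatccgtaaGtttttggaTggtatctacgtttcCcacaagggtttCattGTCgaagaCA

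For RPL1A and RPL1B, 28.8% of the 76-base windows of the coding sequence occurred once among all coding sequences. Values were 38.3% for RPL4, 44.2% for RPL11, 52.7% for RPL7, 69.9% for RPL14 and 78.1% for RPL2. The split of counts between the copies of RPL1, RPL4 and RPL11 is therefore uncertain, since RSEM divides reads that fit both copies by an estimate.

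Upstream stretches are given for 3 pairs in which 1 copy had most of the pair's count. The capitals mark the Rap1 core motif ACCCNNNCA, searched on both strands. The RPL9 stretches lie at chrVII:228575-228694, minus strand (RPL9A) and chrXIV:499316-499435, plus strand (RPL9B), with 245 bases between each stretch and the start codon, and the RPL9B stretch overlaps the small reading frame YNL067W-B. The RPL22 stretches lie at chrXII:262894-263013, plus strand (RPL22A) and chrVI:65113-65232, minus strand (RPL22B), with 180 bases to the start codon. The RPL8 stretches lie at chrVIII:36200-36319, minus strand (RPL8A) and chrXII:48804-48923, minus strand (RPL8B), with 174 bases to the start codon.
RPL9A: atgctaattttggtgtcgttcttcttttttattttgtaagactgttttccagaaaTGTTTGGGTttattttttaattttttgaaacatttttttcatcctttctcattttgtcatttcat
RPL9B: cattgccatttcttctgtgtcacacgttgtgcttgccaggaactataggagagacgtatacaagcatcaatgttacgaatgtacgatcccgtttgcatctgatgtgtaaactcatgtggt
RPL22A: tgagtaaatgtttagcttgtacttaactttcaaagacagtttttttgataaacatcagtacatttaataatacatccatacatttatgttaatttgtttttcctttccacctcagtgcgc
RPL22B: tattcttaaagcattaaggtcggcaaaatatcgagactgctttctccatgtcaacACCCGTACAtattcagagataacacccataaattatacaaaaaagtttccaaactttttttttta
RPL8A: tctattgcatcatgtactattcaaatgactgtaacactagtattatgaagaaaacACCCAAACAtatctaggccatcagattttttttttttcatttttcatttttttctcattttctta
RPL8B: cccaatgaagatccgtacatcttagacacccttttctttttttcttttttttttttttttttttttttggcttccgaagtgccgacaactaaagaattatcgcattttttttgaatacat

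In these stretches RPL9A, RPL22B and RPL8A held 1 match each and their partners held none. RPL9A is the higher copy of its pair, and RPL22B and RPL8A are the lower ones. The stretches were placed to show these matches. Over 500 bases upstream of the start codon, the core motif was found in 30 of the 60 genes (50%) and in 789 of 6006 protein-coding genes (13.1%). A longer form, the core with a C before it and an A before its last CA, was found in 12 of the 60 genes (20%), against 133 of 6006 (2.21%). Its matches lay 230 to 442 bases before the start codon, with a median of 326. The PAC motif GATGAG, known from ribosome biogenesis genes, was found in 13 (21.7%, against 28.2% of all genes), and the RRPE motif AAAAATTTT in 9 (15%, against 9.47%). A match is a run of letters and does not show that a factor binds there.

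The 60 genes lie on 14 chromosomes and have coding lengths of 180 to 1164 bases. An intron interrupts 39 of them (65.0%), against 4.68% of 6027 protein-coding genes in the annotation.

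Levels are given as normalised CPM, and between genes as CPM per kilobase of coding sequence. In polyA RNA, levels over all 12 libraries spanned 80.6-fold, with 43.1 CPM per kb for RPL15B at the low end, a median of 1748 and 3471 for RPL3 at the high end. Most genes lay much closer together, with 52 of 60 above 1000 CPM per kb and a ratio of 4.02 between the 6th highest and the 6th lowest gene.

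The 5 highest genes in polyA RNA were RPL3 (YOR063W), RPL32 (YBL092W), RPL5 (YPL131W), RPL24B (YGR148C) and RPL31A (YDL075W). RPL3, whose product reaches towards the peptidyl transferase centre, had 3675 ± 293 CPM per kb in M, against 3267 ± 238 in G1 (SD, n = 6 each). RPL32 had 3546 ± 392 CPM per kb in M and 3103 ± 273 in G1. RPL5, which binds 5S rRNA, had 3034 ± 113 CPM per kb in M and 2848 ± 287 in G1. RPL24B, whose product takes part in a bridge between the subunits, had 2906 ± 117 CPM per kb in M and 2796 ± 476 in G1. RPL31A, at the exit of the peptide tunnel where the chaperone Zuo1 docks, had 2899.99 ± 313 CPM per kb in M and 2706 ± 329 in G1. RPL3 and RPL32 stood next to each other within their spread, and so did RPL5, RPL24B and RPL31A.

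The 5 lowest genes were all second copies, and their partners had 1291 to 2531 CPM per kb over all libraries. RPL15B had 47.9 ± 2.86 CPM per kb in M, against 38.2 ± 3.07 in G1 (SD, n = 6 each). RPL22B, which is subject to splicing inhibition by the Rpl22 protein, had 127 ± 20.4 in M and 142 ± 16.4 in G1. RPL18B had 370.2 ± 34.7 in M and 359.9 ± 38.4 in G1. RPL9B had 492 ± 64.2 in M and 464 ± 47.7 in G1. RPL14B had 644 ± 52.4 in M and 651 ± 40.5 in G1. These 5 were separated from each other by more than their SDs.

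**Figure D1:**
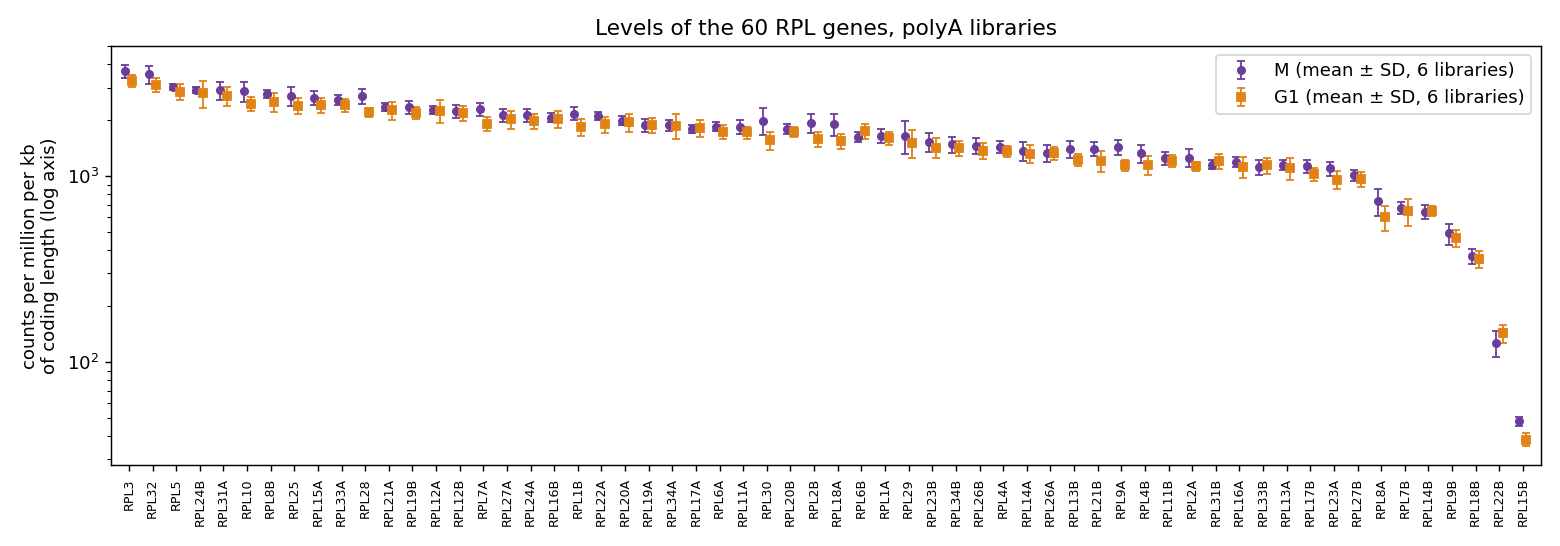
Level of each of the 60 genes in polyA RNA, in normalised CPM per kilobase of coding sequence on a log axis, with M and G1 libraries marked separately. RPL15B lies lowest at 43.1 and RPL3 highest at 3471 CPM per kb over all 12 libraries, and 52 genes lie above 1000.

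In total RNA the levels spanned 104-fold (28.2 to 2928 CPM per kb, median 1441), with 44 genes above 1000. The 5 highest genes shared 3 with those in polyA RNA and the 5 lowest shared 4. Of the other members with no paralogue, RPL10 joins the subunit late, in the cytoplasm, and had 2870.3 ± 353 CPM per kb in M polyA libraries and 2459 ± 209 in G1. RPL25, the docking site of the signal recognition particle, had 2712 ± 321 in M and 2394 ± 239 in G1. RPL28, mutations of which give cycloheximide resistance, had 2699 ± 262 in M and 2216 ± 123 in G1. RPL29, which is not essential, had 1646 ± 329.6 in M and 1508 ± 258 in G1. RPL30, whose product represses splicing of its own transcript, had 1994 ± 329 in M and 1563 ± 173 in G1.

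Together the 60 genes took 4.40 to 6.46% of all protein-coding counts. In polyA libraries the share was 6.12 ± 0.33% in M and 5.74 ± 0.31% in G1 for code 18, and 5.84 ± 0.35% in M and 5.15 ± 0.27% in G1 for code 14 (SD, n = 3 each). In total RNA it was 5.61 ± 0.05% in M and 5.73 ± 0.14% in G1 for code 18, and 5.66 ± 0.10% in M and 4.63 ± 0.30% in G1 for code 14. The 3 code 14 G1 total RNA libraries stood below the other 9, with at most 4.97% against at least 5.55%. In G1 polyA libraries code 18 (5.39 to 5.95%) also lay above code 14 (4.85 to 5.38%), by a narrow margin.

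**Figure D2:**
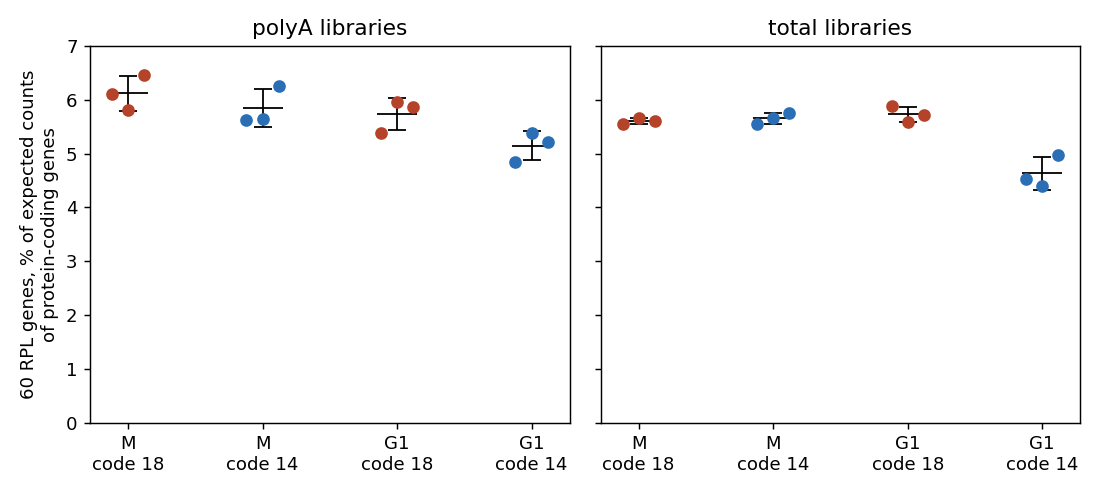
Share of protein-coding counts taken by the 60 genes, in percent, in each of the 24 libraries (points), with the mean and SD of the 3 libraries of each arrest and strain code. The code 14 G1 total RNA libraries, at 4.40 to 4.97%, lie below the other 9 total RNA libraries.

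The largest difference between the codes was seen in G1 total RNA, where 47 of the 60 genes were higher in code 18 and none was lower. Among all 4960 genes tested, 4.54% were higher and 4.07% lower. The median log2 fold change, code 18 over code 14, was 0.36 for the 60 genes, against −0.0089 for all genes, and single genes ranged from −0.032 to 0.59. The shift was broad and small, and only 1 called gene exceeded 1.5-fold. All 3 code 18 libraries lay above all 3 code 14 libraries in 53 of 60 genes (88.3%), against 11.4% of all genes, and none had the reverse order (against 11.9%). The 7 genes that overlapped were RPL4B, RPL15B, RPL20B, RPL22B, RPL26A, RPL27B and RPL34A. Of the genes with an intron 30 of 39 were called, with a median of 0.37, and of those without one 17 of 21, with a median of 0.36. With the Rap1 core motif upstream 23 of 30 were called (median 0.37), and without it 24 of 30 (median 0.36).

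RPL11A, the other partner of 5S rRNA beside RPL5, had the largest change, with the limit that part of its reads also fit RPL11B. It had 998, 877 and 1039.8 CPM in code 18, against 602, 629.6 and 700.3 CPM in code 14, and the codes did not overlap (edgeR quasi-likelihood test with Benjamini-Hochberg adjustment, log2 fold change 0.59, SE 0.09, adjusted p = 0.000376). RPL27A had 857, 848 and 889.97 CPM in code 18, against 581, 576 and 645 CPM in code 14 (edgeR, log2 fold change 0.53, SE 0.08, adjusted p = 0.000213). The low copy RPL18B had 162, 153 and 145 CPM in code 18 and 93.2, 112 and 104 CPM in code 14 (edgeR, log2 fold change 0.57, SE 0.13, adjusted p = 0.00918). In each of these genes the code 18 libraries were all higher. The call for RPL18B was lost without 1 of the 12 libraries, and those of RPL11A and RPL27A were kept whichever library was left out.

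Of the 8 genes with no paralogue, for which no reads are divided between copies, 7 were called higher in code 18. RPL30 had 581, 485 and 479 CPM in code 18 and 411, 364 and 398 CPM in code 14 (edgeR, log2 fold change 0.40, SE 0.09, adjusted p = 0.0105). RPL3 had 3982, 3519 and 3619.6 CPM in code 18 and 2771, 2763 and 3168 CPM in code 14 (edgeR, log2 fold change 0.35, SE 0.07, adjusted p = 0.00471). Log2 fold changes were 0.38 for RPL10, 0.38 for RPL28, 0.36 for RPL5, 0.36 for RPL25 and 0.30 for RPL32. RPL29 had 225, 202 and 199 CPM in code 18 and 183, 147 and 188 CPM in code 14 and did not pass the test (edgeR, log2 fold change 0.27, SE 0.12, adjusted p = 0.21). The calls of RPL32, RPL28 and RPL30 were lost without 7, 3 and 2 of the 12 libraries in turn. At the low end stood RPL15B (−0.032), RPL22B (0.0072) and RPL27B (0.15), none of which passed the test.

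The count of 47 fell to 24 without code 18 G1 replicate 1, to 29 without code 14 G1 replicate 1 and to 25 without code 14 G1 replicate 2. When libraries were scaled by their ERCC spike-ins, of which a total RNA library held only 191 to 646 counts, no member passed the test, while the member median stayed 0.40 above that of all genes.

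**Figure D3:**
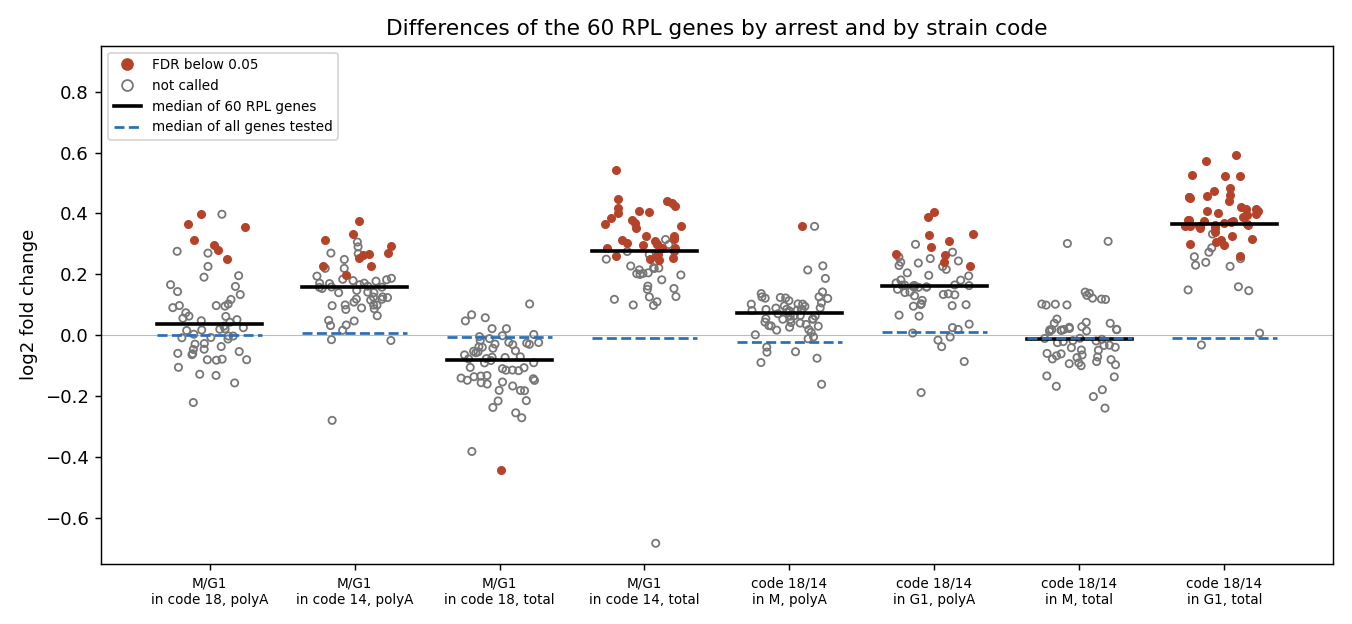
Log2 fold change for each of the 60 genes (points), with calls at an adjusted p below 0.05 marked and medians as lines. The left columns show M over G1 within each code, for both library types. The right columns show code 18 over code 14 in M and in G1, for both library types. Between the codes, the median is 0.36 with 47 genes called in G1 total RNA, and −0.012 with none called in M total RNA.

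In G1 polyA RNA, 10 of the 60 genes were higher in code 18 (RPL1B, RPL5, RPL7B, RPL8A, RPL8B, RPL12A, RPL13A, RPL16A, RPL21A and RPL24B) and none was lower, at a background of 7.53% higher and 8.33% lower among 5832 genes. The median log2 fold change was 0.16, against 0.012 for all genes, and the codes were separated with code 18 above in 26 of 60 genes (43.3%), against 16% of all genes, and with code 18 below in 1, RPL15B (against 15.9%). Of these 10 genes, 9 were among the 47 called in total RNA, which is 90% of the 10 and 19.1% of the 47. RPL7B had 496, 546 and 583 CPM in code 18, against 392, 439.5 and 395 CPM in code 14 (edgeR, log2 fold change 0.40, SE 0.08, adjusted p = 0.00588). RPL24B had 1417, 1403 and 1630.3 CPM in code 18 and 987, 1216 and 1197 CPM in code 14 (edgeR, log2 fold change 0.39, SE 0.09, adjusted p = 0.0116). Both were higher in each code 18 library. RPL12A, from the base of the P stalk, had 1202, 1245 and 1309.9 CPM in code 18 and 869.8, 1041 and 1070.3 CPM in code 14 (edgeR, log2 fold change 0.33, SE 0.08, adjusted p = 0.0167). RPL5 had 2599, 2946 and 2691 CPM in code 18 and 2216, 2433 and 2392 CPM in code 14 (edgeR, log2 fold change 0.23, SE 0.07, adjusted p = 0.0428), a call that was lost in 11 of the 12 fits that left out 1 library. RPL12A lost its call in 2 such fits, RPL24B in 1 and RPL7B in none. RPL15B (−0.19), RPL13B (−0.086) and RPL2B (−0.037) had the lowest log2 fold changes and did not pass the test. The count of 10 became 4 without code 18 G1 replicate 2, 1 without code 18 G1 replicate 3, 6 without code 18 M replicate 1, 2 without code 14 G1 replicate 1 and 4 without code 14 G1 replicate 3, and ranged from 1 to 12 over all 12 such fits. With ERCC scaling no member was called.

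Whether the difference between the codes in G1 was larger in total than in polyA RNA was tested in 1 fit of all 24 libraries. The median of this difference was 0.20 on the log2 scale, with 54 of 60 genes positive, against −0.011 for all genes. No member passed the adjusted threshold in edgeR, and 19 had an unadjusted p below 0.05. The fit did not pair the polyA and total libraries made from the same RNA extract. Over all 5839 genes 1 was called, in the lower direction (0.0171%). The counts of 47 and 10 are therefore not shown to differ gene by gene.

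In M the codes were compared in the same way. In total RNA none of the 60 genes was called in either direction by edgeR, with 2 at an unadjusted p below 0.05 and none called by DESeq2, at a background of 1.71% higher and 2.02% lower. The member median was −0.012, against −0.0092 for all genes. RPL3 had 3469, 3521 and 3646 CPM in code 18 and 3345, 3566 and 3531 CPM in code 14, and RPL11A had 870.2, 762 and 879 CPM in code 18 and 822, 918 and 840.3 CPM in code 14, and in both genes the codes overlapped. RPL22B (0.31), RPL8A (0.30) and RPL7B (0.14) had the highest log2 fold changes, and RPL15B (−0.24), RPL9A (−0.20) and RPL1A (−0.18) the lowest. In polyA RNA 1 gene, RPL8A, was higher in code 18 and none was lower, at a background of 6.41% higher and 5.54% lower, with a member median of 0.073 against −0.022. RPL8A had 634, 576 and 690.2 CPM in code 18, against 499, 438 and 545 CPM in code 14 (edgeR, log2 fold change 0.36, SE 0.10, adjusted p = 0.0415). Its call was lost without code 18 G1 replicate 3, code 18 M replicate 1 or 3, code 14 G1 replicate 1 or 2 and code 14 M replicate 1 or 2, and 3 genes were called without code 14 M replicate 3. RPL22B had 52, 49.7 and 55.6 CPM in code 18 and 41, 35.1 and 46.8 CPM in code 14 and did not pass the test (edgeR, log2 fold change 0.36, SE 0.12, adjusted p = 0.081). RPL2A (0.23) came next, and RPL26A (−0.16), RPL31B (−0.089) and RPL1A (−0.075) were lowest, none of them called. All code 18 libraries lay above all code 14 libraries in 4 of 60 genes in polyA (6.67%, against 14.7% of all genes) and in 6 in total RNA (10%, against 10.2%). The reverse order, all code 18 libraries below all code 14 libraries, held in no member in polyA (against 16.6% of all genes) and in 8 in total RNA (13.3%, against 10.5%), which were RPL1A, RPL2A, RPL7A, RPL9A, RPL13B, RPL20B, RPL26B and RPL28. In M the pheromone-induced genes were again lower in code 18, with 4 of 5 called in polyA (median −0.98) and 3 of 5 in total RNA (median −1.66), as were 3 of 3 genes of the a mating type in polyA (median −0.78) and 1 of 3 in total RNA (median −0.48).

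The test of the difference itself, the code effect in M minus that in G1, called 8 of the 60 genes in total RNA, all lower, against 1.35% lower and 1.27% higher among all genes. The member median was −0.38, against 0.012 for all genes, and 45 of 60 genes had an unadjusted p below 0.05. The 8 genes were RPL1A, RPL7A, RPL9A, RPL10, RPL11A, RPL13B, RPL26B and RPL27A, whose products lie in different parts of the subunit. This test shares its G1 libraries with the comparison of the codes in G1 and is not a second observation of it.

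RPL9A had 667, 733 and 762 CPM in M code 18, 787, 804 and 892 in M code 14, 887, 709.8 and 852 in G1 code 18 and 562, 483 and 658 in G1 code 14 (edgeR, log2 difference −0.72, SE 0.16, adjusted p = 0.0181). RPL10 had 1586, 1726 and 1802 CPM in M code 18, 1797, 1863 and 1804 in M code 14, 1946, 1824 and 1894 in G1 code 18 and 1478, 1340.3 and 1543 in G1 code 14 (edgeR, log2 difference −0.47, SE 0.11, adjusted p = 0.023). In both genes the G1 code 14 libraries were the low ones. RPL13B had 868, 809.6 and 869 CPM in M code 18, 934, 939 and 988 in M code 14, 977, 939.8 and 1039.8 in G1 code 18 and 678, 721 and 820.3 in G1 code 14 (edgeR, log2 difference −0.58, SE 0.12, adjusted p = 0.0142). Log2 values of the difference were −0.63 for RPL11A, −0.60 for RPL26B, whose product lies at the tunnel exit, −0.54 for RPL1A, −0.50 for RPL7A and −0.43 for RPL27A. The RPL13B call was kept without any 1 library, while that of RPL27A was lost in 11 of 12 such fits, of RPL10 in 5, of RPL9A in 4, of RPL7A in 3, of RPL11A and RPL1A in 2 and of RPL26B in 1. The count of 8 was 25 with DESeq2 and none with ERCC scaling. It was 1 without code 18 G1 replicate 1, 4 without code 18 M replicate 1, 5 without code 14 G1 replicate 2, 29 without code 14 G1 replicate 3 and 3 without code 14 M replicate 2. In polyA RNA no gene was called by edgeR (4 at an unadjusted p below 0.05, 1 by DESeq2), at a background of 2.40% higher and 1.32% lower, with a member median of −0.10 against −0.020.

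**Figure D4:**
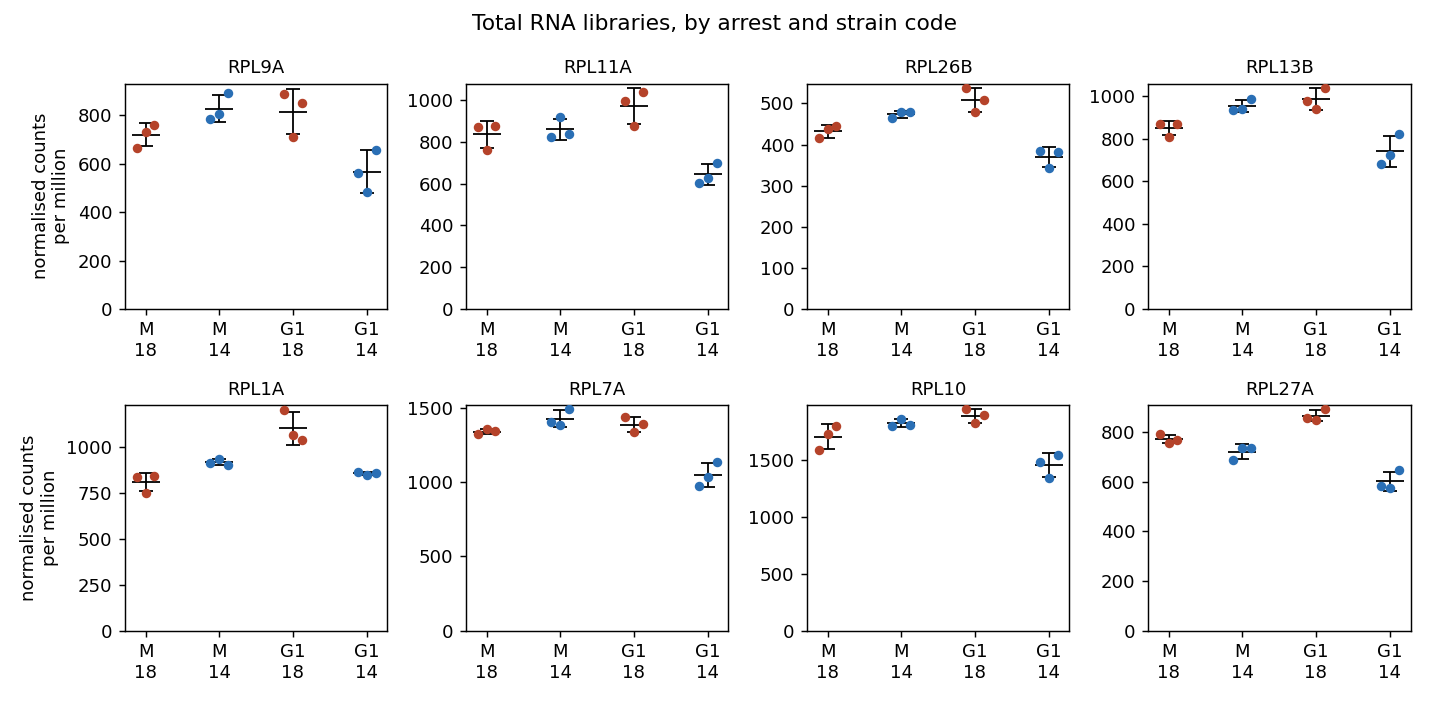
Normalised CPM in total RNA of the 8 genes called in the test of code by arrest, in each library (points), with M left of G1 and code 18 left of code 14. In RPL9A, RPL10 and RPL13B the G1 code 14 libraries lie below the G1 code 18 libraries. In M this order is reversed in RPL9A and RPL13B, and the codes overlap in RPL10.

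Between the arrests, 17 of the 60 genes were higher in M polyA libraries and none was lower. The background was 25.7% higher and 25.4% lower of 5832 genes, so the share of higher genes was near that of all genes, while no member was lower. The changes were small, with a median log2 fold change of 0.095 against 0.0079, and all 6 M libraries lay above all 6 G1 libraries in only 3 of 60 genes (5%, against 10.7% of all genes) and below them in none (against 9.48%). RPL30 had 505 to 766 CPM in the 6 M libraries, against 421 to 591 CPM in the 6 G1 libraries (edgeR, log2 fold change 0.35, SE 0.11, adjusted p = 0.0188). RPL9A had 849.9, 749 and 916 CPM in M code 18 and 649.8, 726 and 695 in G1 code 18, and 815, 738 and 894 in M code 14 and 602, 641 and 645 in G1 code 14 (edgeR, log2 fold change 0.33, SE 0.06, adjusted p = 0.000927). The lowest member, RPL15B, had 28 to 32.9 CPM in M, against 20.5 to 25.5 CPM in G1 (edgeR, log2 fold change 0.33, SE 0.06, adjusted p = 0.00089).

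Of the genes with no paralogue, RPL28 had 1095 to 1392 CPM in M, against 937 to 1071 CPM in G1 (edgeR, log2 fold change 0.28, SE 0.06, adjusted p = 0.00243). RPL10 (0.22), RPL32 (0.19) and RPL3 (0.17) also passed the test, with edgeR adjusted p = 0.0443, 0.0414 and 0.038, but each of these calls was lost in 9 of the 12 fits without 1 library. With a replicate block for the culture, RPL10, RPL32 and RPL3 also lost their calls, with edgeR adjusted p = 0.054, 0.052 and 0.064. RPL25 (0.18), RPL29 (0.13) and RPL5 (0.096) did not pass it. RPL22B had 35.1 to 55.6 CPM in M and 45.5 to 59 CPM in G1, the lowest log2 fold change of the 60 but not called (edgeR, log2 fold change −0.18, SE 0.09, adjusted p = 0.0982), followed by RPL6B (−0.10) and RPL31B (−0.061). The count of 17 became 9 without code 18 G1 replicate 1, code 18 M replicate 3, code 14 G1 replicate 1 or code 14 M replicate 3, 10 without code 18 G1 replicate 3, and 11 without code 18 M replicate 1, code 14 G1 replicate 2 or code 14 M replicate 1. With ERCC scaling, which moved the median of all genes to −0.41, the member median was −0.32 and no member was called. The 60 genes thus lay 0.088 above the median of all genes with the first scaling and 0.089 above it with ERCC scaling, while the sign of their own change differed. A polyA library held 2193 to 9019 spike-in counts. The G1 code 14 replicates held 5702, 8574 and 2193, at 10385369, 18040806 and 9701223 counts outside rRNA and spike-ins. The part of this scatter in the lost calls and turned signs was not tested.

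In total RNA, 6 genes were higher in M (RPL1B, RPL7A, RPL24B, RPL28, RPL30 and RPL34B) and 2 were lower (RPL1A and RPL22B), at a background of 12.1% higher and 11.7% lower of 4960 genes. The share of higher genes was near that of all genes, and the share of lower genes was below it. These values average the codes, which differed, as given below. The median was 0.092, against −0.0013. The 6 shared 4 genes with the 17 called in polyA RNA (66.7% of the 6 and 23.5% of the 17). RPL1B had 987 to 1198 CPM in M, against 647 to 1098 CPM in G1 (edgeR, log2 fold change 0.23, SE 0.06, adjusted p = 0.0143). Mean values of RPL1B were 1101 CPM in M and 1083 CPM in G1 in code 18, and 1024 and 755 CPM in code 14. Its partner RPL1A had 751 to 933 CPM in M, against 849 to 1202 CPM in G1 (edgeR, log2 fold change −0.17, SE 0.06, adjusted p = 0.0314), and its value turned to 0.0018 with ERCC scaling. This lower value came from code 18 alone. In code 14 RPL1A had 913, 933 and 900 CPM in M, above the 862, 849 and 856 CPM in G1. Only 28.8% of the windows of RPL1A and RPL1B are unique, so the split of counts behind their opposite calls is uncertain. RPL22B had 15.8 to 33.3 CPM in M, against 31.1 to 46.6 CPM in G1 (edgeR, log2 fold change −0.53, SE 0.18, adjusted p = 0.0426). In no gene did all 6 M libraries lie above all 6 G1 libraries (against 4.42% of all genes) or below them (against 4.25%). Calls of RPL22B, RPL1A, RPL34B, RPL24B, RPL30 and RPL28 were lost without 9, 7, 7, 6, 5 and 4 of the 12 libraries in turn, and those of RPL1B and RPL7A with none. The count of 6 was 3 without code 18 G1 replicate 2, 2 without code 14 G1 replicate 2 and 20 without code 14 G1 replicate 3.

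Within each code, the arrests were also compared, and the test of the difference between the codes is that of code by arrest above. In code 14, 33 genes were higher in M and none lower (median 0.28 against −0.0085, background 8.99% higher and 7.16% lower), whereas in code 18 none was higher and 1, RPL1A, was lower (median −0.080 against −0.0040, background 7.04% higher and 7.16% lower). RPL1A had 835, 751 and 839.8 CPM in M code 18, against 1202, 1061 and 1036 CPM in G1 code 18 (edgeR, log2 fold change −0.44, SE 0.08, adjusted p = 0.000625). This call was kept without any 1 library, but it was lost with ERCC scaling, and no member was called lower with paralogues summed. RPL1B had 1011, 1198 and 1093 CPM in M code 18 and 1087, 1065 and 1098 CPM in G1 code 18. Only 28.8% of the windows of this pair are unique, so the split of its counts is uncertain. The 33 calls rest on the same G1 code 14 libraries as the 47 between the codes, and were 17 without code 14 G1 replicate 1, 15 without code 14 G1 replicate 2, 20 without code 14 M replicate 2 and 17 without code 14 M replicate 3. In polyA RNA 11 genes were higher in code 14 (median 0.16 against 0.0090, background 19.1%) and 7 in code 18 (median 0.037 against 0.0016, background 18.8%), with none lower. Neither count of higher genes exceeded the share of all genes, of which 17.2% were lower in code 14 and 18.8% in code 18. The 11 became 3 without code 14 G1 replicate 1, 4 without code 14 G1 replicate 3 and 3 without code 14 M replicate 3. The 7 became 1 without code 18 G1 replicate 1, 11 without code 18 G1 replicate 2, 2 without code 18 G1 replicate 3, 3 without code 18 M replicate 1 and 1 without code 18 M replicate 3. The code 18 median was −0.020 without code 18 G1 replicate 1. With the replicate block 1 gene, RPL6B, was called lower in code 18. The 9 genes shared by both library types in code 14 were 81.8% of the 11 and 27.3% of the 33.

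Within a pair, the first copy's share of the pair's counts does not depend on how libraries are scaled. Mean shares in polyA RNA spanned 20% for RPL8A to 98.3% for RPL15A, with the first copy above 50% in 17 of 26 pairs and between 40 and 60% in 13. Between the arrests, 9 of 26 pairs differed (exact permutation test of the arrests within codes, two-sided, adjusted p = 0.0433 each over the 26 pairs, smallest p possible 0.005). The first copy's share was higher in M in 6 pairs (RPL6, RPL7, RPL9, RPL18, RPL22 and RPL33) and lower in 3 (RPL1, RPL17 and RPL19). When M and G1 of the same culture were paired, the exact permutation test by sign flips cannot go below p = 0.0312 and 0 pairs passed the adjusted threshold.

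The largest change in polyA RNA was in RPL6. RPL6A made up 53.9, 51.9 and 55.4% of its pair in M code 18 and 53.3, 51.2 and 53.9% in M code 14, against 49.8, 49.2 and 49.7% in G1 code 18 and 50.5, 49.4 and 49.8% in G1 code 14. Every M library lay above every G1 library, and the means were 53.3 ± 1.52% in M and 49.7 ± 0.46% in G1 (SD, n = 6 each), 3.53 points apart. RPL22A, which dominates its pair, made up 93.7 to 95.5% in M, against 92.5 to 93.5% in G1, and these ranges did not overlap either. RPL9A, whose coding stretch above shows 17 of the bases that separate it from RPL9B, made up 74.5 ± 1.31% of its pair in M and 71.2 ± 1.27% in G1, with ranges of 73 to 76.1% in M and 70.2 to 73.7% in G1. The changes of RPL9 (3.30 points), RPL18 (2.58), RPL7 (2.30), RPL33 (1.9) and RPL22 (1.38) were all towards the first copy. In total RNA, where no pair passed, RPL33 went the other way (−0.51 points) and RPL17 hardly changed (−0.205). The other pairs called in polyA RNA kept their direction there.

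RPL1A made up 43.1 ± 2.08% of its pair in M polyA libraries, against 46.5 ± 2.19% in G1, a difference of −3.38 points. In total RNA it made up 38.5 to 48.1% in M, against 48.5 to 56.7% in G1, ranges that did not overlap, with a difference of −6.99 points (exact permutation test, p = 0.005, adjusted p = 0.065). Since only 28.8% of the windows of RPL1A and RPL1B are unique, the estimate behind this share is weak. RPL17A, at the tunnel exit, differed by −2.30 points, and RPL19A, in a bridge to the small subunit, by −1.70 points. Among the 23 pairs with at least 50% unique windows, 8 passed the test. No pair passed between the codes in polyA RNA, with 11 pairs at an unadjusted exact permutation p below 0.05, and none passed in total RNA between the arrests (3 unadjusted) or the codes (2 unadjusted). The largest code differences in polyA RNA were in RPL13, with 48.1 ± 3.42% for RPL13A in code 18 and 44.1 ± 2.42% in code 14 (exact permutation test, adjusted p = 0.102), and in RPL26, with 46.5 ± 1.29% for RPL26A in code 18 and 50.3 ± 2.03% in code 14 (adjusted p = 0.065). RPL1A (−3.13 points) and RPL8A (2.32 points) followed.

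**Figure D5:**
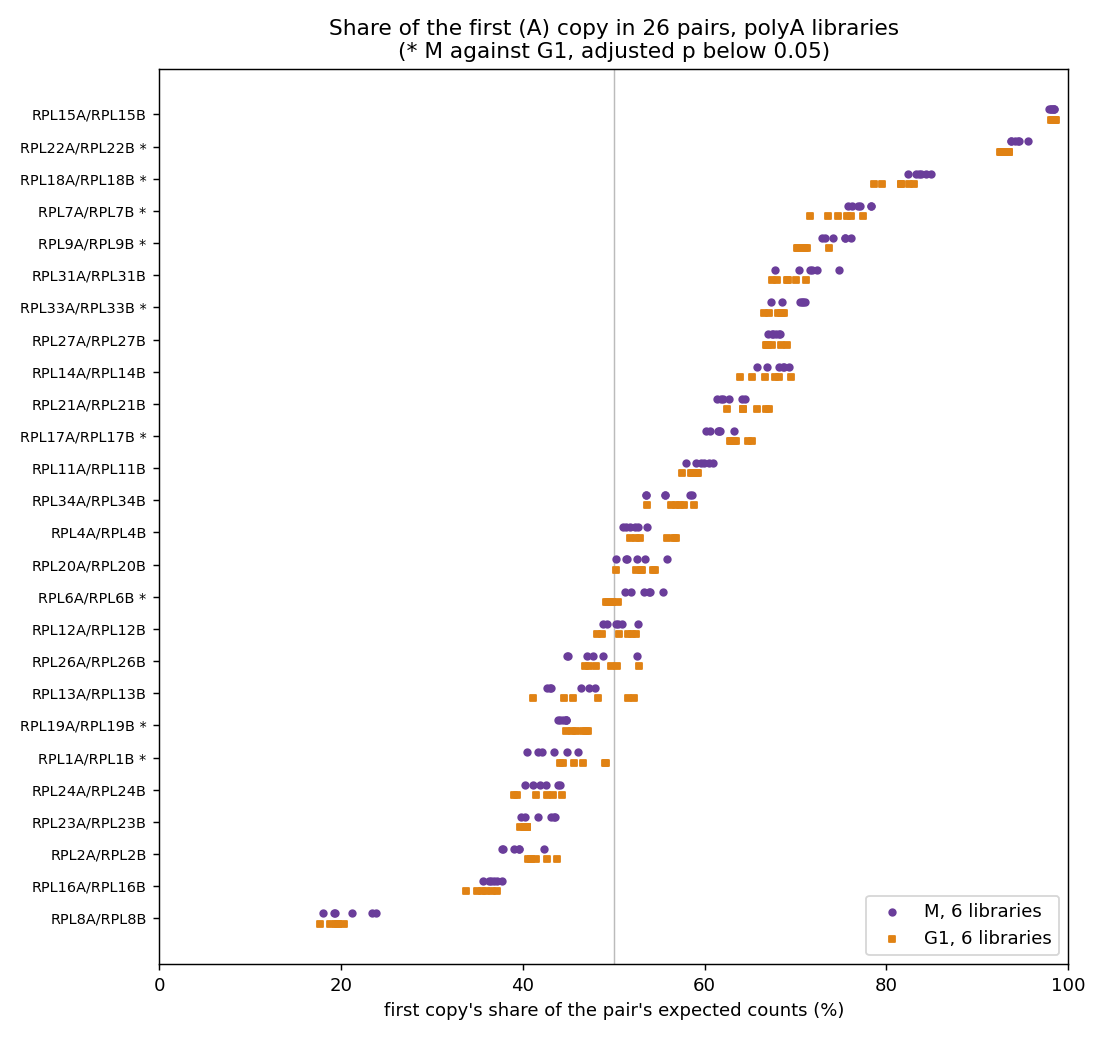
Share of the first copy in the polyA counts of its pair, in percent, for each of the 26 pairs in the 6 M and the 6 G1 libraries. Shares run between 20% for RPL8A and 98.3% for RPL15A, and in RPL6 all M libraries lie above all G1 libraries.

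Set against total RNA, polyA libraries gave lower values for most of the 60 genes. In M, 3 genes were higher and 37 lower in polyA (median log2 ratio −0.20, against 0.046 for all genes, background 12.7% higher and 14.3% lower of 5839 genes), and in G1 3 were higher and 35 lower (median −0.20, against 0.059, background 17.6% and 15.8%). These directions are relative to the scaling. With libraries scaled by their total counts the median of all genes became 0.51 in M and 0.52 in G1, and the split became 45 higher and 0 lower in M and 44 higher and 4 lower in G1. The distance of the member median to that of all genes stayed at −0.25 in M and −0.26 in G1. The lower calls of M and G1 shared 31 genes (83.8% of the 37 and 88.6% of the 35). The 3 higher genes, named here after their values were seen, were RPL18B, RPL24B and RPL31B in both arrests, all second copies. RPL24B had a log2 ratio of 0.27 in M and 0.41 in G1, RPL31B of 0.30 in M and 0.34 in G1, and RPL18B of 0.24 in M and 0.23 in G1, and the RPL18B call was lost without 1 library in 5 of 24 fits in M and 10 of 24 in G1. Shares of the copies differed most between library types in RPL13, RPL31 and RPL24. RPL24A made up 42% of its pair in polyA and 49.5% in total RNA, RPL31A 70.3% in polyA and 78.3% in total RNA, and RPL13A 46.1% in polyA and 36.6% in total RNA. In 22 of 26 pairs the library types lay within 5 points.

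Other genes of the ribosome were read in the same way, as counts and medians. Among 21 other large-subunit genes, RPL35A to RPL43B and the P stalk genes, 9 were higher in code 18 in G1 total RNA and none lower (median 0.36), with none called in G1 polyA (median 0.12) or in M in either library type, and 3 were higher in M in polyA and 2 in total RNA, where 25.7% and 12.1% of all genes were higher. Of 56 small-subunit genes, 38 were higher in code 18 in G1 total RNA and none lower (median 0.36), and 9 in G1 polyA (median 0.15), against 2 in M polyA and none in M total RNA. The shares of all genes higher in code 18 were 4.54% in G1 total RNA, 7.53% in G1 polyA and 6.41% in M polyA. The 2 small-subunit genes in M polyA were therefore not above that share. In M polyA libraries 15 of the 56 were higher than in G1 and 1 lower (median 0.13), and the 15 are a share near the 25.7% of all genes called higher.

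Genes that serve ribosomal proteins were read in 2 lists. Of 10 genes for dedicated chaperones and late 60S assembly factors, none was higher and 9 were lower in M polyA libraries (median −0.31), where 25.4% of all genes were lower, and 6 were lower in total RNA (median −0.27), where 11.7% were. SYO1, whose product carries Rpl5 and Rpl11 into the nucleus, had a log2 fold change of −0.38 in polyA, and NOG1, a GTPase of 60S maturation, −0.35. None of the 10 differed between the codes in G1, and 4 were lower in code 18 in M polyA libraries, where 5.54% of all genes were lower. Of 10 transcriptional regulators, 1 was higher and 3 were lower in M polyA libraries, where 25.7% and 25.4% of all genes were. The lower share was near that of all genes and the higher share below it. HMO1, which binds ribosomal protein promoters, was higher and TOD6, a repressor of ribosome biogenesis genes, IFH1 and SFP1 were lower, with log2 fold changes of 0.22, −0.64, −0.34 and −0.20. In total RNA, where 9 were tested, HMO1 (0.36) was higher and TOD6 (−0.72) lower, shares near the 12.1% and 11.7% of all genes. Within code 14, no regulator was called higher in M in polyA or total RNA (against 19.1% and 8.99% of all genes). Within code 18, 1 was called higher in each (against 18.8% and 7.04%). In polyA 1 was called lower in code 14 and 2 in code 18, against 17.2% and 18.8% of all genes. Between the codes, HMO1 was higher in code 18 in M polyA (0.78), M total RNA (0.77) and G1 polyA (0.35). In these comparisons in turn, 6.41%, 1.71% and 7.53% of all genes were higher. CRF1, a corepressor of ribosomal protein genes, was lower in code 18 in G1 polyA (−1.82) at only 0.23 to 2.2 CPM, and SCH9, a kinase below TORC1, was lower in G1 total RNA (−0.42). The shares of all genes called lower there were 8.33% in G1 polyA and 4.07% in G1 total RNA.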

How the data were processed

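PolyA-selected and total RNA were sequenced on an Illumina HiSeq as 76-base strand-specific single-end reads, with ERCC spike-ins added. Per the submitters' processing notes and the study's methods, the authors trimmed reads with cutadapt 1.9.1 and deposited expected counts per gene from RSEM 1.3.0 with STAR 2.5.2a, on the R64 genome with ERCC sequences appended, and tested them with DESeq2 1.12.3. RSEM divides reads that fit several genes by an estimate, so 93.4% of the deposited values were whole (within 0.005). The 24 TPM columns were not used.

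Expected counts were rounded to whole numbers. The 92 ERCC and 16 rRNA features (2.24 to 10.5% of the counts in polyA and 95.5 to 96.0% in total libraries) were left out. Per library type, edgeR 4.0.16 (R 4.3.3, limma 3.58.1) quasi-likelihood tests used TMM factors, filterByExpr and 4 groups of arrest and strain code, with Benjamini-Hochberg adjustment over all genes tested and a threshold of 0.05. PolyA was set against total RNA in 1 fit of the 24 libraries. The difference between library types in the effect of the codes was tested in that fit, chosen after the counts in G1 were seen. Fits were tested on simulated data. CPM were normalised by the TMM factors. Paralogue shares were tested by exact permutation (scipy 1.17.1). Motifs and stretches were read from the R64 genome, and 6048 gene IDs were matched to a symbol.

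The members, gene lists and tests were chosen with earlier results of these data known. Genes named are the 8 with no paralogue, the 3 highest and 3 lowest log2 fold changes of the 8 main comparisons, the 5 highest and 5 lowest polyA levels and the 4 pairs with the largest change of share, plus genes needed to list short sets of calls. M and G1 samples of 1 replicate come from the same culture by the study's design, and polyA and total libraries from the same RNA. Deviations of the paired libraries from their group means correlated at −0.32 to 0.62 (M and G1, polyA), −0.0040 to 0.085 (M and G1, total) and 0.0020 to 0.34 (polyA and total) over 4600 genes. Alternatives were DESeq2 1.42.0, total-count and ERCC scaling, TMM factors without ribosomal protein genes, no filter, paralogues summed, a replicate block and leaving out each library.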

Additional observations from a re-analysis of the deposited data

Results flagged for a closer look

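Dixon's test was run on 144 groups of 6 libraries, 140 for the levels of 35 named genes and 4 for the share of counts taken by all 60 genes. In 5 of them, each a level of 1 gene, 1 library stood apart from the other 5. Chance alone flags about 1 in 20 groups whose values share 1 distribution. Each group here pooled both codes, so that rate is only a guide, and 5 of 144 does not exceed it. RPL3 had 4353 CPM in code 18 replicate 2 of the G1 polyA libraries, against 3639 to 3816 CPM in the others. RPL14B had 305 CPM in the same library, against 261 to 270.2 CPM in the others. RPL5 had 2424 CPM in code 14 replicate 1 of the M total libraries, against 2548 to 2605 CPM. RPL12A had 1027 CPM in code 14 replicate 1 of the M polyA libraries, against 1127 to 1181 CPM. RPL15B had 32.9 CPM in code 14 replicate 2 of the M polyA libraries, against 28.0 to 29.5 CPM.

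In total RNA the effect of the codes differed between M and G1 for 8 genes by the test of code by arrest. The log2 differences were −0.72 for RPL9A (edgeR, adjusted p = 0.0181), −0.63 for RPL11A (edgeR, adjusted p = 0.0149), −0.60 for RPL26B (edgeR, adjusted p = 0.0136), −0.58 for RPL13B (edgeR, adjusted p = 0.0142), −0.54 for RPL1A (edgeR, adjusted p = 0.0149), −0.50 for RPL7A (edgeR, adjusted p = 0.0165), −0.47 for RPL10 (edgeR, adjusted p = 0.023) and −0.43 for RPL27A (edgeR, adjusted p = 0.0412).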

How the results depend on the processing

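Counts of called genes depended most on the scaling. With ERCC scaling the counts of members called higher were 0 for M against G1 in polyA (also in code 18 and code 14), M against G1 in total RNA (also in code 14), and the codes in G1 polyA, M polyA and G1 total RNA, and the counts called lower were 0 for M against G1 in total RNA (also in code 18) and for code by arrest in total RNA. For polyA against total it gave 14 higher and 0 lower in G1, and 0 and 0 in M. With total-count scaling, members called higher were 12 (M against G1, code 18, polyA), 18 (code 14, polyA), 19 (total RNA, with 0 lower), and for polyA against total 45 higher and 0 lower in M and 44 higher and 4 lower in G1. TMM factors without ribosomal protein genes gave 11 for M against G1 in polyA and 7 in code 14. Without the filter the counts were 4 (M against G1, code 14, polyA), 5 (codes, G1 polyA) and 1 lower (M against G1, total RNA). With paralogues summed to 34 features they were 2 (M against G1, code 18, polyA), 6 (code 14, polyA), 4 (codes, G1 polyA), 0 (codes, M polyA), 0 lower in total RNA for M against G1 and for code 18 alone, and for polyA against total 1 higher in G1 and 0 higher and 23 lower in M. DESeq2 gave 3 higher and 0 lower for M against G1 in total RNA, 1 lower for code 18 in polyA, 2 higher for the codes in M polyA, and for code by arrest 25 lower in total RNA and 1 lower in polyA. The cause was not tested.

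With ERCC scaling these log2 values of M against G1 in polyA turned negative: −0.32 for the member median, −0.52 for that of code 14, −0.18 for RPL10, −0.100 for RPL15B, −0.12 for RPL28, −0.23 for RPL3, −0.026 for RPL30, −0.22 for RPL32 and −0.084 for RPL9A. RPL1A in total RNA turned to 0.0018. The medians of polyA against total turned to 0.52 with ERCC scaling in G1, and to 0.26 in both arrests with total-count scaling.

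With the replicate block, the count for M against G1 in code 18 polyA was 5 higher and 1 lower, and that of paralogue pairs 0. Other counts stayed within 1.5 times of those above (14 for M against G1 in polyA, 49 for the codes in G1 total RNA, 12 lower for code by arrest). RPL3, RPL10 and RPL32 lost their calls for M against G1 in polyA. Between the codes, libraries with the same number correlated in their deviations at 0.023 to 0.27 in polyA (4 of 6 pairs over 0.1) and −0.047 to 0.15 in total RNA (2 of 6).

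Leaving out 1 library at a time gave ranges of 9 to 20 higher and 0 to 1 lower (M against G1, polyA, with 10 without code 18 G1 replicate 3), 1 to 11 and 0 to 1 (code 18), 3 to 13 and 0 to 1 (code 14), 2 to 20 and 0 to 2 (M against G1, total RNA), 15 to 40 higher (code 14, total RNA, with 17 without code 14 G1 replicate 1 or M replicate 3), 1 to 1 lower (code 18, total RNA), 1 to 12 higher (codes, G1 polyA), 0 to 3 (codes, M polyA), 24 to 46 (codes, G1 total RNA), 0 to 1 (codes, M total RNA), and 1 to 29 lower (code by arrest, total RNA). For polyA against total they were 2 to 4 higher and 27 to 43 lower in M, and 2 to 4 higher and 33 to 40 lower in G1. Exact permutation tests of paralogue shares without 1 replicate cannot go below p = 0.0556. Total RNA libraries, with 25642 to 48040 counts over the 60 genes, limit the low members most.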
